A study of Mus musculus with 20 samples.

Results

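Bile acid transport and sensing was described in the distal colon (DC) through 8 genes, all of which were found among the 26619 gene rows of the count table by mapping the Ensembl identifier to the gene symbol. The genes are Slc10a2, Fabp6, Slc51a and Slc51b, whose products carry bile acids through the cell, and Nr1h4, Vdr, Gpbar1 and Nr0b2, whose products sense them or act just downstream. Tissue came from 20 C57BL/6 mice, 5 on each of 4 diets. All mice ate the Total Western Diet (TWD) from 3 weeks of age for 6 weeks. They then spent 3 weeks on the TWD alone (0% RPS, the control) or on the TWD with 2, 5 or 10% resistant potato starch (RPS), which the labels name raw potato starch. All groups therefore share the TWD background, and the 3 RPS groups are compared with the same 5 control mice. Each library is bulk tissue, in which fewer cells of a type and less RNA per cell cannot be told apart.

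Bile acids are made from cholesterol in the liver, conjugated, released into the gut and mostly taken back up in the ileum. The apical sodium-dependent carrier (Slc10a2) brings them into the enterocyte, Fabp6 binds them in the cytosol, and the heterodimer of Slc51a and Slc51b (OSTalpha and OSTbeta) passes them out at the basolateral side. The nuclear receptor FXR (Nr1h4) is activated by bile acids and induces the small corepressor SHP (Nr0b2) and the Slc51 genes, while Vdr responds to vitamin D and to the secondary bile acid lithocholic acid, and Gpbar1 (TGR5) is a bile acid receptor at the cell membrane. In the colon, bacteria convert the bile acids that escape the ileum into secondary forms.

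Libraries held 18.4 to 35.0 megacounts (M) over all genes, and the ranges were 31.3 to 35.0 M at 0% RPS and 18.4 to 26.6 M at 10% RPS. Expression is given in CPM, counts per megacount of the scaled library total, and 3 counts, taken as the detection floor of a library, correspond to 0.085 to 0.163 CPM. The posterior Hox genes that mark the distal bowel had a summed level of 527 to 928 CPM, and no Hox or epithelium marker was at 0 in any library. The mean log2 CPM of the posterior Hox genes was 4.79 in mouse RS10_721 (5% RPS) and 5.86 to 6.44 in the others. A few libraries held transcripts of other organs. The summed level of 5 pancreas markers was 4559 CPM in mouse RS10_721 (5% RPS), and their mean log2 CPM was 9.75 there, 6.61 in mouse RS10_784 (10% RPS) and at most 2.40 in the others. The summed level of 5 liver markers was 200 CPM in mouse RS10_703 (0% RPS) and 109 CPM in mouse RS10_727 (10% RPS), and their mean log2 CPM was 4.10 and 3.20 there and at most 2.33 in the others. Each mouse carries the code of its sample title. For 3 mice the description label, which is used here, and the treatment label give different RPS levels. Mouse RS10_717 is 5% or 2%, mouse RS10_725 is 10% or 5%, and mouse RS10_748 is 2% or 10%.

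The stretches of 200 bases just upstream of the outermost annotated start are shown for 3 of the genes, because Slc10a2 and Slc51b had the largest differences between diets, and Slc51b and Nr1h4 varied together between mice. They were read from GRCm39 on the strand of the gene, which is the minus strand in all 3 cases, at chr8:5155352-5155551 (Slc10a2), chr9:65330598-65330797 (Slc51b) and chr10:89369498-89369697 (Nr1h4). None of the 3 stretches overlaps an annotated exon. Capitals mark matches, on either strand, to 3 short motifs described under the sequences.
Slc10a2: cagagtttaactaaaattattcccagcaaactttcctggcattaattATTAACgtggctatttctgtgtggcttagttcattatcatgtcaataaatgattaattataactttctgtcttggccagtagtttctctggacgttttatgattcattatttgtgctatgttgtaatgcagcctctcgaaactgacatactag
Slc51b: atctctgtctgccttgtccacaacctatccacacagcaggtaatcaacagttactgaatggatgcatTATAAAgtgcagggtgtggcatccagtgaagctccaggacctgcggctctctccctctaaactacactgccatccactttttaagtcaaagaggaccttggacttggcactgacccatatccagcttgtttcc
Nr1h4: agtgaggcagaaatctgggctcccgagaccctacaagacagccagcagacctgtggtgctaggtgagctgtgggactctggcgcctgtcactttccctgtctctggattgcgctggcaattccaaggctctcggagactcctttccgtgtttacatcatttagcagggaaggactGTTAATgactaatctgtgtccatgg
None of the 3 stretches held AGGTCA, the core element that many nuclear receptors recognise, which occurred in 11.2% of the corresponding upstream stretches of 21770 protein-coding genes. Slc10a2 and Nr1h4 each carried 1 match to GTTAAT, an element of HNF1 sites found in 5.34% of those stretches, and the match of Slc10a2 lay on the opposite strand. Slc51b carried 1 match to TATAAA, the letters of the TATA box, which were present in 10.1% of them. This match began at position -133 from the annotated start, and whether it serves as a TATA box was not tested. These matches, and the lack of one, describe letters in the window and say nothing of binding.

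Between genes, levels were compared only per length, as CPM per kilobase of the canonical transcript. The mean over 20 mice was 109 CPM per kb for Vdr, 31.2 for Nr1h4, 10.1 for Slc51b, 8.07 for Fabp6, 2.83 for Slc10a2, 0.544 for Gpbar1, 0.0835 for Slc51a and 0.0178 for Nr0b2. Vdr and Nr1h4 therefore headed the order. Vdr exceeded Nr1h4, and Nr1h4 exceeded Slc51b, in 20 of 20 mice with no overlap of their ranges. Slc51b and Fabp6 were not separated, since Slc51b was the higher in 14 of 20 mice and the ranges were 5.51 to 16.0 and 5.19 to 14.0 CPM per kb. Fabp6 was above Slc10a2, and Slc10a2 above Gpbar1, in 20 of 20 mice although their ranges over mice overlapped. Slc51a was above Nr0b2 in 16 of 20 mice.

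**Figure D1:**
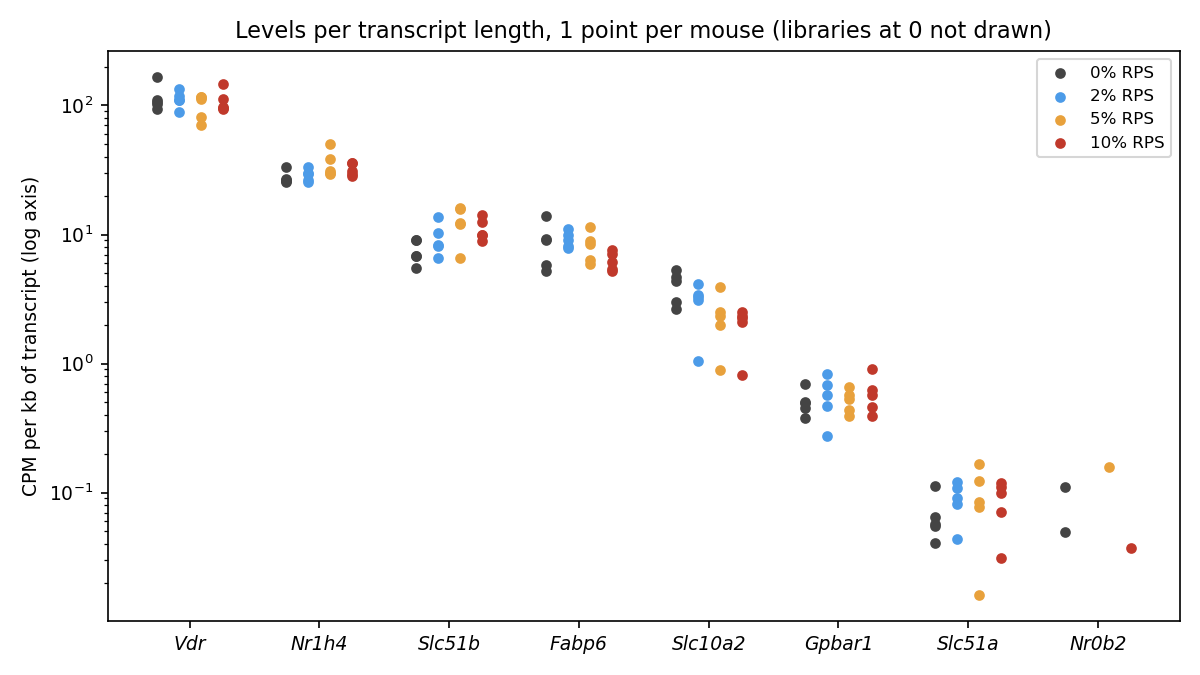
Level of each gene in CPM per kilobase of canonical transcript on a log axis, 1 point per mouse, coloured by diet; libraries with no count are not drawn. Vdr and Nr1h4 lie highest, Slc51a lies far below Slc51b, and Nr0b2 has points for only 4 mice.

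One gene lay at the detection floor. Nr0b2, the corepressor induced by FXR (ENSMUSG00000037583, chr4:133280678-133283847, plus strand), had 12 counts in all 20 libraries together, and 18 libraries held 3 counts or fewer, of which 16 held none. The counts were 2 in mouse RS10_701, 4 in mouse RS10_703, 5 in mouse RS10_721 and 1 in mouse RS10_729. The 2 libraries above the floor, RS10_703 and RS10_721, are those with the highest liver and the highest pancreas marker levels, and the part of those tissues in the Nr0b2 counts was not tested. Nr0b2 did not pass the filter for edgeR. DESeq2, run without that filter, gave unadjusted p of 0.382, 0.995 and 0.562 at 2, 5 and 10% RPS and no call, and with both groups at the floor no fold is given.

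Slc51a and Gpbar1 were low but mostly detected. Slc51a, the alpha subunit of the basolateral exporter (ENSMUSG00000035699, chr16:32293322-32306842, minus strand), had 1 to 14 counts per library, more than 3 in 17 of 20 libraries, and was removed by the filter on low counts. Its mean was 0.182 ± 0.0755 CPM (SD, n = 5) at 0% RPS, 0.245 ± 0.0809 at 2%, 0.258 ± 0.155 at 5% and 0.237 ± 0.0979 at 10%, so that the diet means differed by less than the spread between mice at 5% RPS. Gpbar1, the membrane receptor (ENSMUSG00000064272, chr1:74316047-74318870, plus strand), had 12 to 36 counts per library. It averaged 0.789 ± 0.183 CPM at 0% RPS, 0.883 ± 0.326 at 2%, 0.807 ± 0.166 at 5% and 0.924 ± 0.310 at 10%. The log2 fold change of Gpbar1 at 10% RPS was 0.21 ± 0.27 (SE), with an adjusted p of 0.771 by edgeR, and the ranges of the diets overlapped.

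The exporter subunits were detected at unequal levels. Slc51b per kb exceeded Slc51a per kb in 20 of 20 mice, with a median of 128-fold over mice, and by 121-fold when counts were summed over mice. The gene spans overlap genes on the opposite strand, Pcyt1a (45.4 CPM) for Slc51a and Rasl12 (17.9 CPM) for Slc51b. The libraries were stranded, but the use of strand in the counting is not given in the sources used here, so both counts are uncertain to that extent.

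**Figure D2:**
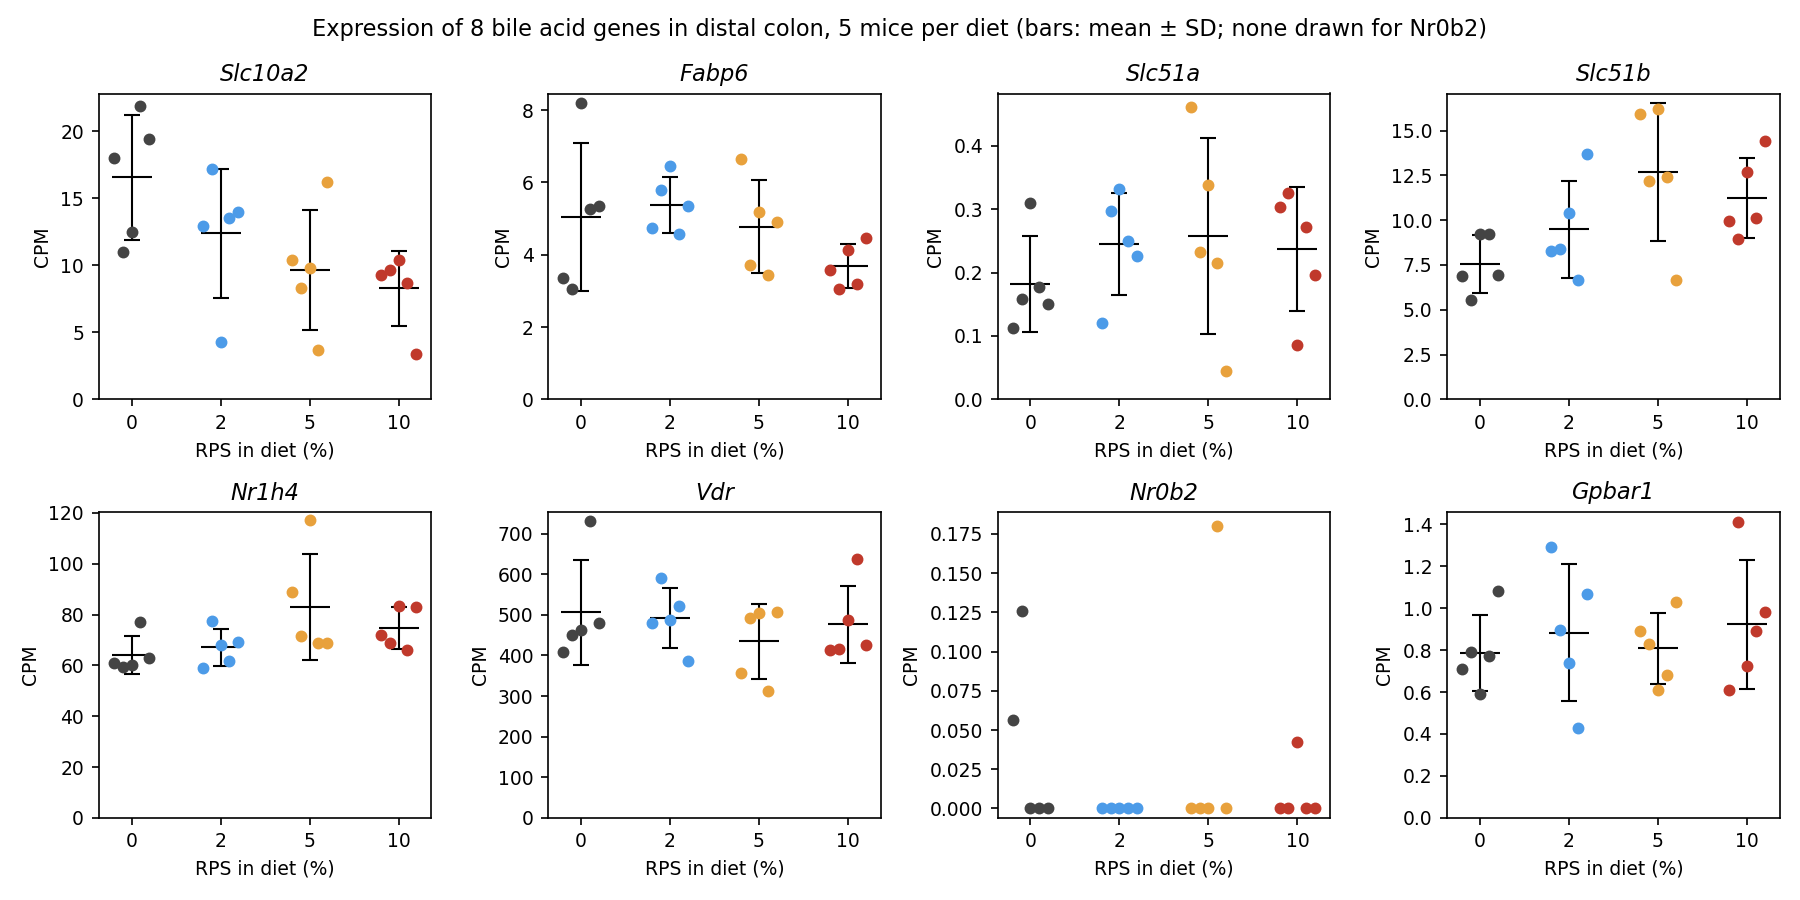
CPM of each of the 8 genes by RPS level, 1 point per mouse, with horizontal bars for the mean and whiskers for the SD of 5 mice (none for Nr0b2, which is at the floor); each panel has its own axis. All 10% RPS mice lie below the control mice for Slc10a2, and 4 of 5 lie above them for Slc51b.

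Whether RPS altered these genes was then asked at each level against 0% RPS. With filtering, 6 of the 8 genes could be tested by edgeR (17893 genes in all), and calls required an adjusted p no higher than 0.05 together with a 1.5-fold difference. None of the 6 was called at 2%, 5% or 10% RPS, where 0%, 0% and 0.0391% of all tested genes were called. DESeq2 also called 0 of the genes at each level, against 0.00385%, 0.112% and 0.808% of all genes. At an unadjusted p under 0.05 by edgeR the number was 0 of 6 at 2% RPS (1.41% of all tested genes), 2 of 6 at 5% RPS (9.19%) and 2 of 6 at 10% RPS (15.2%). The linear trend over RPS percent also called none of the 6 (2.1% of all tested genes were called, 1.15% higher and 0.95% lower), with 3 of 6 at an unadjusted p under 0.05 (19.1%). DESeq2 called none by the trend (3.74% of all genes) or by the any-diet test (1.34%). A test of any difference among the 4 diets called 0 of 6 (0.0727%), with 2 of 6 at an unadjusted p under 0.05 (10.6%). These shares depended on single mice and on the labels. Of all tested genes 375 were called by the trend, against 24 without mouse RS10_784, 1148 without mouse RS10_727 and 0 by the treatment label or with marker covariates. At 10% RPS the number was 7, against 189 without mouse RS10_727 and 0 by the treatment label. The median log2 fold change of the 6 genes was 0.08, -0.02 and 0.06 at the 3 levels.

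**Figure D3:**
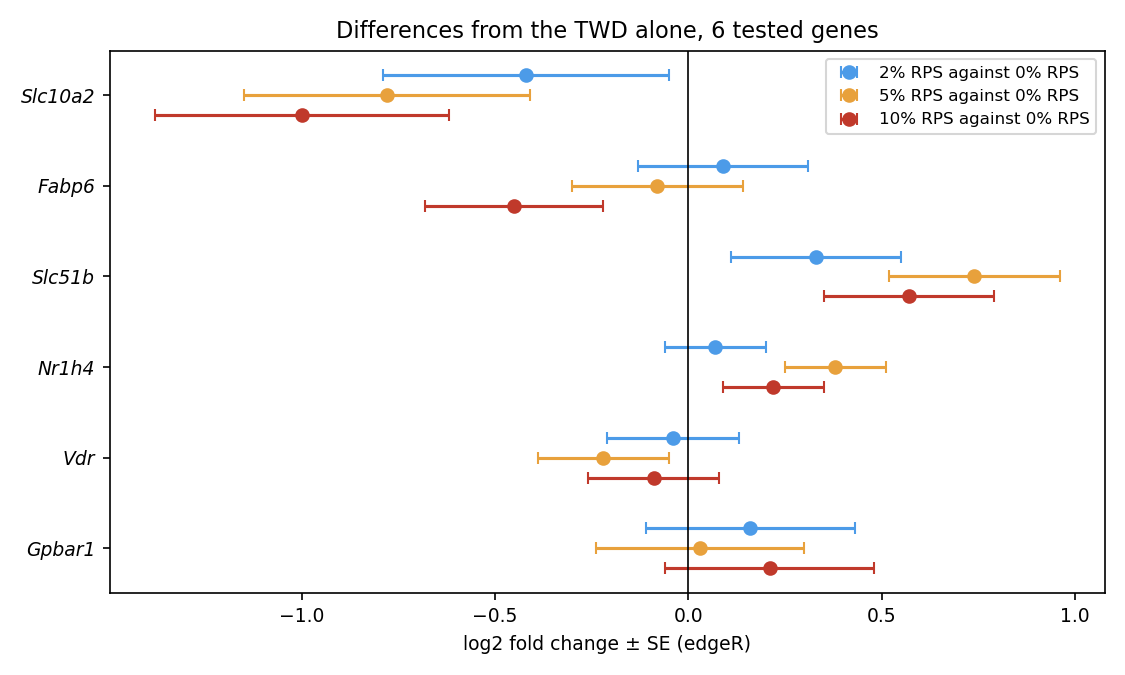
Log2 fold change of the 6 tested genes at 2, 5 and 10% RPS against 0% RPS from edgeR, with whiskers of 1 SE. Slc10a2 lies left of 0 at each level and Slc51b right of 0, and no gene passed the adjusted threshold.

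Of the uptake genes, Slc10a2, the apical carrier (ENSMUSG00000023073, chr8:5133219-5155351, minus strand), had lower values at higher RPS levels, without passing the adjusted threshold. Its level was 18.0, 11.0, 12.5, 21.9 and 19.4 CPM in the control mice RS10_701, RS10_703, RS10_704, RS10_707 and RS10_708. At 10% RPS it was 9.31, 9.68, 10.4, 8.69 and 3.41 CPM in mice RS10_725, RS10_727, RS10_729, RS10_731 and RS10_784. All 5 of these mice lay below all 5 control mice, a separation in this direction that 1.15% of tested genes showed, and the nearest values were 10.4 and 11.0 CPM. The 2% RPS mice ranged from 4.31 to 17.2 CPM (median 13.5) and the 5% RPS mice from 3.70 to 16.2 CPM (median 9.77), both overlapping the controls. Mean levels were 16.6 ± 4.65 CPM at 0% RPS, 12.4 ± 4.82 at 2%, 9.68 ± 4.51 at 5% and 8.30 ± 2.80 at 10% (SD, n = 5). The log2 fold change was -0.42 ± 0.37 (SE) at 2%, -0.78 ± 0.37 at 5% and -1.0 ± 0.38 at 10% RPS, where edgeR gave an unadjusted p of 0.0161 and an adjusted p of 0.22. The trend was -0.096 ± 0.034 log2 units per percent RPS, with an adjusted p of 0.127 by edgeR and 0.0882 by DESeq2. Mouse RS10_748, with 14.0 CPM, is a 10% mouse by its treatment label, and with that label the 10% mice overlap the controls.

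Levels of Slc10a2 moved with those of marker genes across the 20 mice. In control mice the summed level of the surface colonocyte markers Car4, Aqp8, Slc26a3 and Guca2a was 2527 to 3082 CPM. The 10% RPS mice held 4183 to 4636 CPM, without overlap, a separation that 1.13% of single tested genes showed. The trend test called 3 of the 4 higher, against 1.15% of all tested genes. Of the 5 posterior Hox genes it called 1 lower (0.95% of all tested genes). This was Hoxb13, at -0.032 ± 0.008 log2 units per percent (adjusted p of 0.0425 by edgeR). Summed posterior Hox levels overlapped, at 711 to 928 CPM in control mice and 627 to 726 CPM in 10% RPS mice. Slc10a2 was lower in mice with a higher mean log2 level of 6 epithelium markers (r = -0.76, permutation p = 0.00013, adjusted 0.0013; rho = -0.77, permutation p = 0.00015, adjusted 0.0015). This r was -0.54 without the 2 mice farthest out and -0.69 for deviations from the diet means. Against the surface colonocyte markers r was -0.67 (permutation p = 0.00093, adjusted 0.0062) and rho -0.77 (permutation p = 0.00011, adjusted 0.0015), with r = -0.52 both without the 2 mice farthest out and within diets. Against the posterior Hox genes r was 0.68 (permutation p = 8e-05, adjusted 0.0013) and rho 0.67 (permutation p = 0.00168, adjusted 0.00672), with r = 0.60 without the 2 mice farthest out and 0.66 within diets. Mice with more Slc10a2 thus held more posterior Hox and less epithelium transcript. The relations are from 20 pairs of gene and list, over which p was adjusted, and were added after the data were seen. With the epithelium and smooth muscle marker levels as covariates the log2 fold change at 10% RPS was -0.12, and the part of cell makeup or of bowel position in the difference was not tested. The epithelium means used there were 9.90 to 10.31 in control mice and 10.20 to 10.62 in 10% RPS mice. The trend test called 2 of the 6 epithelium markers higher. A fit with these covariates, here and for the genes below, therefore cannot tell cell makeup apart from diet. Mice RS10_784 and RS10_721, with the lowest and second lowest Slc10a2, had the highest epithelium marker means. The clock gene Dbp also varied widely, at 9.52 to 113.9 CPM in control mice and 3.76 to 59.6 CPM in 10% RPS mice. Whether Slc10a2 followed Dbp was not tested.

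**Figure D4:**
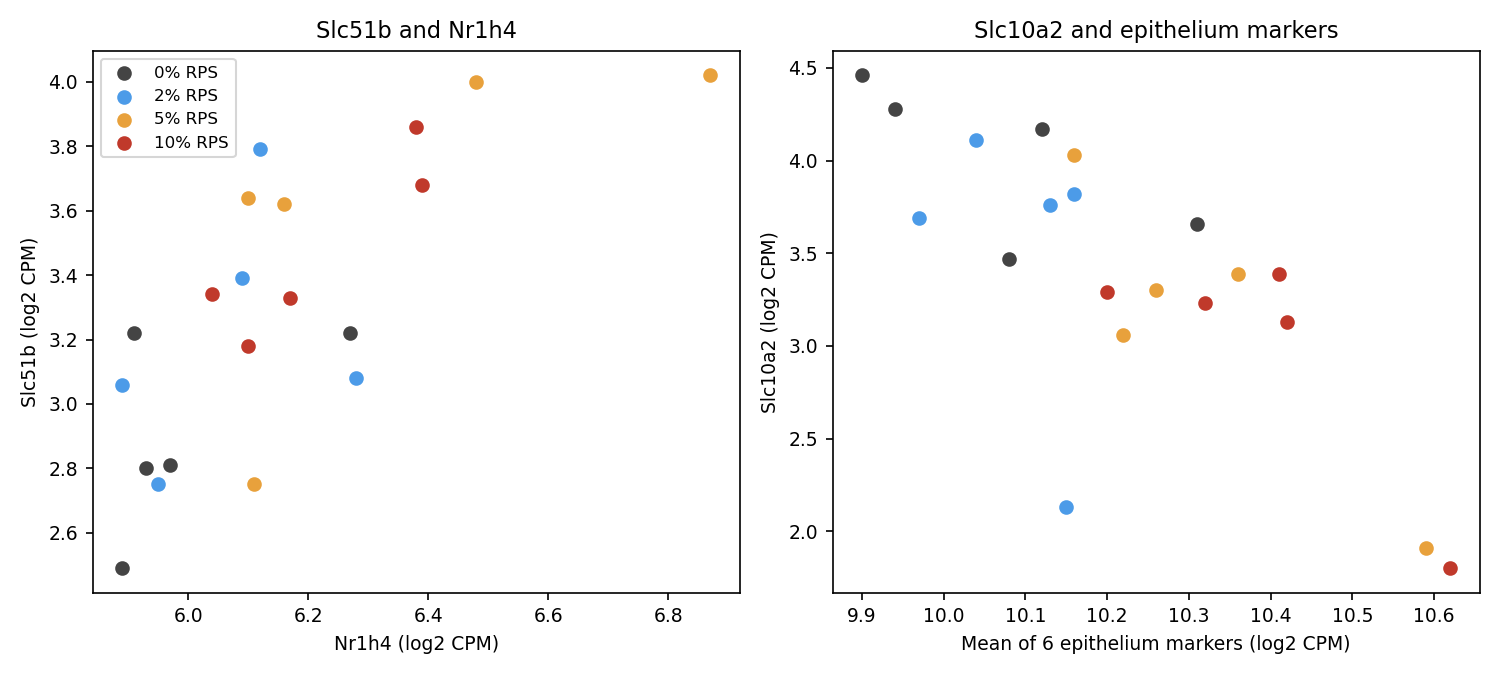
Left, log2 CPM of Slc51b against log2 CPM of Nr1h4; right, log2 CPM of Slc10a2 against the mean log2 CPM of 6 epithelium markers; 1 point per mouse, coloured by diet. Slc51b and Nr1h4 are high in the same mice (r = 0.74), and Slc10a2 is low where the epithelium markers are high (r = -0.76).

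Fabp6, the cytosolic bile acid binding protein (ENSMUSG00000020405, chr11:43486872-43492469, minus strand), was found at 3.04 to 8.20 CPM. Means were 5.05 ± 2.06 CPM at 0% RPS, 5.38 ± 0.770 at 2%, 4.77 ± 1.28 at 5% and 3.68 ± 0.611 at 10% (SD, n = 5). The control mice spanned 3.04 to 8.20 CPM and the 10% RPS mice 3.04 to 4.47 CPM, so the latter lay inside the control range. The log2 fold change at 10% RPS was -0.45 ± 0.23 (SE; adjusted p of 0.348 by edgeR), and the trend was -0.050 ± 0.021 per percent (adjusted p of 0.197 by edgeR).

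Of the export genes, Slc51b, the beta subunit (ENSMUSG00000053862, chr9:65319995-65330597, minus strand), had higher values on RPS, again without passing the adjusted threshold. It was at 6.88, 5.57, 9.25, 9.25 and 6.93 CPM in the control mice RS10_701, RS10_703, RS10_704, RS10_707 and RS10_708. At 5% RPS it was at 15.9, 12.2, 16.2, 12.4 and 6.65 CPM in mice RS10_717, RS10_718, RS10_719, RS10_721 and RS10_724. At 10% RPS it was at 9.96, 8.97, 12.7, 10.1 and 14.4 CPM in mice RS10_725, RS10_727, RS10_729, RS10_731 and RS10_784. In each of these groups 4 of 5 mice lay above every control mouse, the exceptions being mouse RS10_724 and mouse RS10_727. The 2% RPS mice ranged from 6.65 to 13.7 CPM, with 2 of 5 above the controls. The highest of them was mouse RS10_748, a 10% mouse by its treatment label, and mouse RS10_717 is a 2% mouse by that label. Without the 3 mice with disagreeing labels the log2 fold change of Slc51b at 2% RPS was 0.16. Means were 7.57 ± 1.62 CPM at 0% RPS, 9.50 ± 2.72 at 2%, 12.7 ± 3.85 at 5% and 11.2 ± 2.27 at 10% (SD, n = 5). The log2 fold change was 0.33 ± 0.22 (SE) at 2%, 0.74 ± 0.22 at 5% and 0.57 ± 0.22 at 10% RPS, with adjusted p of 1.0, 0.346 and 0.228 by edgeR, and 0.0998 at 5% RPS by DESeq2. Across mice Slc51b was higher where the epithelium markers were higher (r = 0.61, permutation p = 0.00464, adjusted 0.0186; rho = 0.69, permutation p = 0.00082, adjusted 0.00515), with r = 0.55 without the 2 mice farthest out and 0.42 within diets. Against the surface colonocyte markers r was 0.67 (permutation p = 0.00185, adjusted 0.00925) and rho 0.68 (permutation p = 0.00103, adjusted 0.00515), with r = 0.62 without the 2 mice farthest out and 0.56 within diets. With the covariates above the log2 fold change of Slc51b at 10% RPS was 0.22. Without mice RS10_703, RS10_721 and RS10_784 it was 0.37, and without mouse RS10_727, which was left out only by itself, 0.65. The part of cell makeup was not tested.

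Of the receptors, Nr1h4, the bile acid receptor FXR (ENSMUSG00000047638, chr10:89289742-89369497, minus strand), was expressed at 59.0 to 117 CPM. Its mean was 64.0 ± 7.45 CPM at 0% RPS, 67.1 ± 7.25 at 2%, 83.1 ± 20.9 at 5% and 74.6 ± 8.19 at 10% (SD, n = 5). The control mice had 61.0, 59.2, 60.1, 77.2 and 62.7 CPM, and the 5% RPS mice 88.9, 71.6, 117, 68.6 and 68.9 CPM, in order of mouse number. Mouse RS10_707 stood above the other controls and mouse RS10_719 above all others, and 2 of 5 mice at 5% and at 10% RPS exceeded every control. The log2 fold change was 0.38 ± 0.13 (SE) at 5% RPS, with an unadjusted p of 0.00749 and an adjusted p of 0.369 by edgeR, and 0.22 ± 0.13 at 10% RPS.

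Vdr, the vitamin D receptor (ENSMUSG00000022479, chr15:97752306-97808511, minus strand), was at 311 to 732 CPM, the highest value being that of the control mouse RS10_707. Its means were 506 ± 129 CPM at 0% RPS, 493 ± 73.7 at 2%, 434 ± 93.1 at 5% and 476 ± 95.2 at 10% (SD, n = 5), and the ranges of all diets overlapped. The log2 fold change at 10% RPS was -0.09 ± 0.17 (SE; adjusted p of 0.855 by edgeR). It was 0.29 with the marker covariates and up to 0.09 with 1 mouse left out, so its direction was not settled. Across mice Vdr was higher where the posterior Hox genes were higher by r, at 0.59 (permutation p = 0.00857, adjusted 0.0286), while rho was 0.50 (permutation p = 0.0276, adjusted 0.079). That r was 0.47 without the 2 mice farthest out and 0.54 within diets.

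Variation between mice was compared for the 10 pairs that can be formed from the 5 genes averaging 1 CPM or more. Slc51b and Nr1h4, an exporter subunit and the receptor known to induce it, varied together over the 20 mice, with r = 0.74 (permutation p = 3e-05, adjusted 0.0003) and rho = 0.70 (permutation p = 0.00077, adjusted 0.0077). The relation was r = 0.68 without the 2 mice farthest out and r = 0.62 for deviations from the diet means (adjusted permutation p = 0.0361). It was r = 0.72 for residuals on the epithelium and smooth muscle markers (adjusted permutation p = 0.0014). For deviations and residuals the permutations shuffled all 20 values freely. They made no allowance for the diet means or marker levels removed, so these p-values can be too low. The relation within diets is thus not established at an adjusted p of 0.05. Slc51b and Nr1h4 were the only pair past an adjusted p of 0.05 by Pearson's r. Other genes tracked each of them more closely, such as Ckmt1 with Slc51b (r = 0.86) and Acot11 with Nr1h4 (r = 0.90). Whether Nr1h4 acted on Slc51b in these mice was not tested. Slc10a2 and Slc51b gave r = -0.51 (permutation p = 0.0207, adjusted 0.103) and rho = -0.57 (permutation p = 0.00959, adjusted 0.0479), with r = -0.41 without the 2 mice farthest out, r = -0.30 within diets, and r = -0.10 for residuals on the epithelium and smooth muscle markers (adjusted permutation p = 0.938).

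The genes whose log2 level over the 20 mice was most like each member were sought among 15229 other genes, as a description with no test. For Slc10a2 they were Upf3b (r = 0.88), Brme1 (r = 0.86) and Rnf167 (r = 0.86). For Fabp6 they were Slc16a10, an aromatic amino acid transporter (r = 0.79), Smarcal1 (r = 0.75) and Pwwp3a (r = 0.75). For Slc51b they were Ckmt1, a mitochondrial creatine kinase (r = 0.86), Ildr1 (r = 0.83) and Pla2g5, a secreted phospholipase (r = 0.83). Those of Nr1h4 were Acot11, an acyl-CoA thioesterase (r = 0.90), Trim15 (r = 0.89) and Trim31 (r = 0.87), for which r was 0.74, 0.71 and 0.73 without the 2 mice farthest out. Those of Vdr were Ppargc1a, a transcriptional coactivator of mitochondrial genes (r = 0.90), Kat6b (r = 0.89) and Zmynd8 (r = 0.88).

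Other genes of bile acid handling were followed in 4 lists of 45 genes, of which 40 were in the table and 32 could be tested. None of the 32 was called at 2%, 5% or 10% RPS by edgeR, with 6 of 32 at an unadjusted p under 0.05 at 10% RPS, 2 higher and 4 lower, against 15.2% of all tested genes. By the linear trend 1 of 32 rose and 1 of 32 fell, against 1.15% and 0.95% of all tested genes, both in the list of synthesis and conjugation. Fgf15, Cyp24a1, Cyp7a1, Akr1d1 and Slco1a1 were not analysed here.

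Baat, which joins bile acids to taurine or glycine, rose along RPS percent. Its control mice had 1.81, 3.10, 3.17, 3.21 and 2.17 CPM, and its 10% RPS mice 6.42, 3.97, 7.85, 11.7 and 10.9 CPM, in order of mouse number, so the groups did not overlap, as was so in this direction for 1.13% of tested genes. Means were 2.69 ± 0.653 CPM at 0% RPS, 2.71 ± 0.747 at 2%, 5.79 ± 3.00 at 5% and 8.15 ± 3.18 at 10% (SD, n = 5). Mouse RS10_748, with 2.01 CPM, is a 10% mouse by its treatment label, and with that label the 10% mice overlap the controls. The trend was 0.176 ± 0.032 log2 units per percent (adjusted p of 0.0117 by edgeR), and the log2 fold change at 10% RPS was 1.60 ± 0.33 (SE; adjusted p of 0.0659 by edgeR and 0.000398 by DESeq2). The trend was no longer called by the treatment label (adjusted p of 0.173 by edgeR), with the marker covariates (0.881) or without mouse RS10_784 (0.0542). With each mouse left out, the adjusted p of Baat at 10% RPS by edgeR ranged from 0.0123 to 0.205. It passed without mouse RS10_703, RS10_704, RS10_721, RS10_724 or RS10_727.

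Cyp27a1, the mitochondrial sterol 27-hydroxylase of the alternative bile acid pathway, fell along RPS percent. It was at 53.2 to 90.1 CPM in the control mice and at 38.4 to 56.5 CPM in the 10% RPS mice, with means of 70.1 ± 15.0 and 43.7 ± 7.33 CPM (SD, n = 5), and the groups overlapped by mouse RS10_727. The trend was -0.072 ± 0.016 log2 units per percent (adjusted p of 0.0249 by edgeR), and the log2 fold change at 10% RPS was -0.68 ± 0.17 (SE; adjusted p of 0.0861 by edgeR and 0.0104 by DESeq2). The trend was no longer called by the treatment label (adjusted p of 0.253 by edgeR), with the marker covariates (1.0), without the 3 mice with disagreeing labels (0.0775), or without mouse RS10_708 (0.0595), RS10_729 (0.055), RS10_731 (0.0616) or RS10_784 (0.0814). With each mouse left out, the adjusted p of Cyp27a1 at 10% RPS by edgeR ranged from 0.0318 to 0.282. It passed without mouse RS10_703 or RS10_727. Cyp46a1, a cholesterol 24-hydroxylase, had a log2 fold change of -0.60 ± 0.28 at 10% RPS (adjusted p of 0.308 by edgeR).

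**Figure D5:**
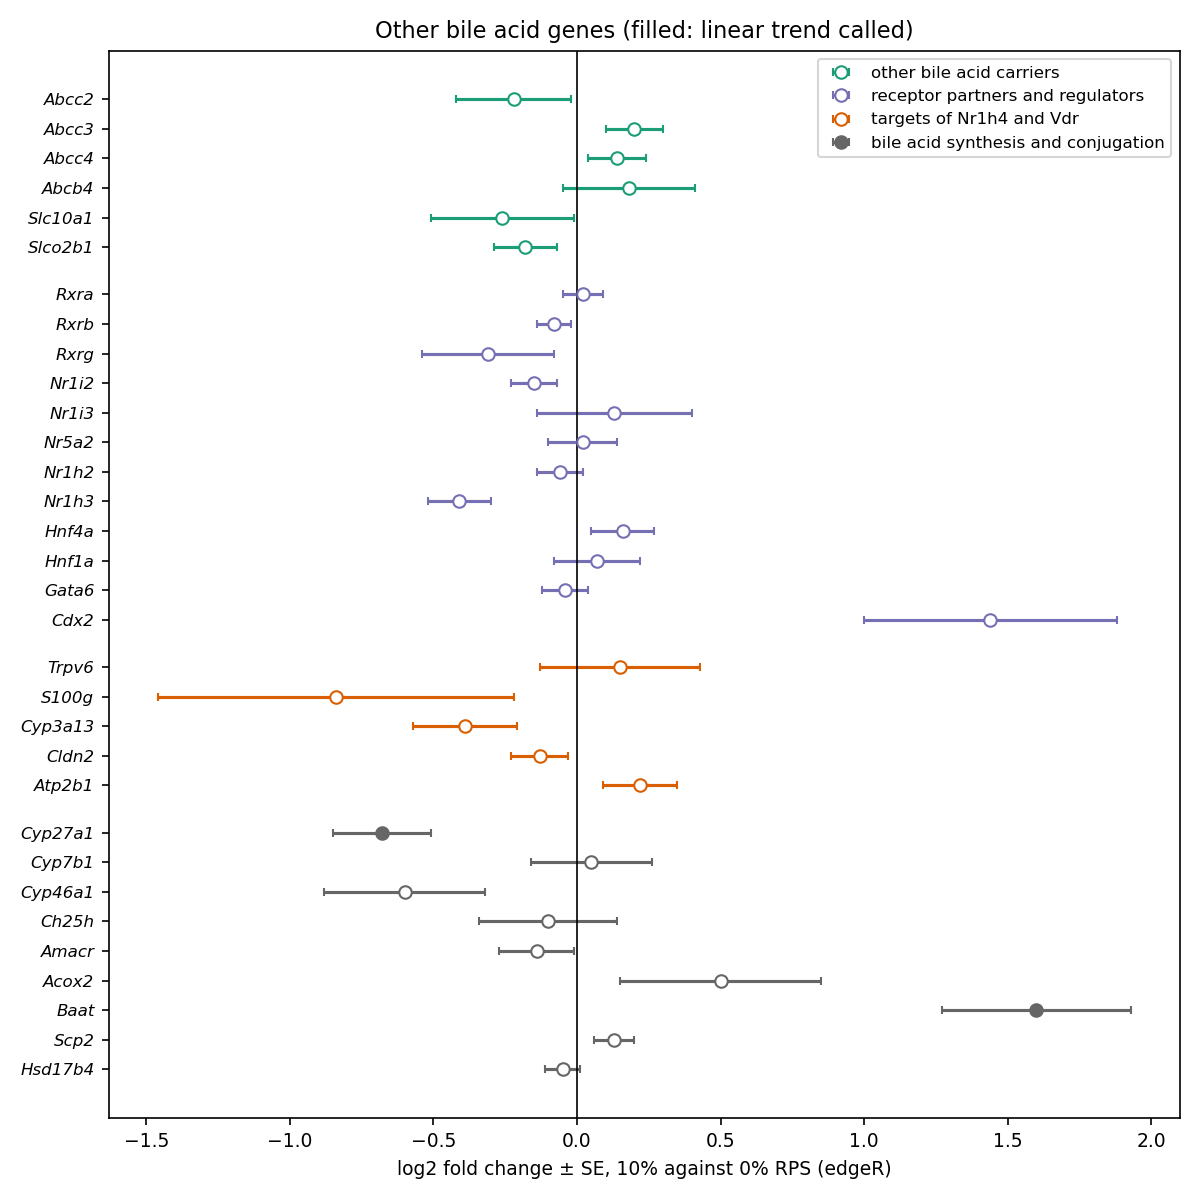
Log2 fold change at 10% against 0% RPS from edgeR with whiskers of 1 SE for the 32 tested genes of the 4 lists, coloured by list; filled points are genes called by the linear trend. Only Baat (1.60) and Cyp27a1 (-0.68) are filled.

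Among receptor partners and regulators, 12 of 13 genes could be tested and none was called by edgeR. Cdx2, the intestinal homeobox factor, was at 5.77 to 23.3 CPM in the control mice and at 23.7 to 40.9 CPM at 10% RPS. These groups did not overlap, as was so in this direction for 1.13% of tested genes. Mouse RS10_748, with 17.3 CPM, is a 10% mouse by its treatment label, and with that label the 10% mice overlap the controls. The log2 fold change of Cdx2 at 10% RPS was 1.44 ± 0.44 (SE; adjusted p of 0.139 by edgeR and 0.0381 by DESeq2). It was called by edgeR without mouse RS10_703 (1.88, adjusted p of 0.0487) and without mice RS10_703, RS10_721 and RS10_784 (1.78, adjusted p of 0.0218). With the marker covariates it was 0.57 (adjusted p of 1.0 by edgeR). DESeq2 also called Cdx2 by the trend (adjusted p of 0.0332) and by the any-diet test (adjusted p of 0.047). Nr1h3, the oxysterol receptor LXRalpha, had a log2 fold change of -0.41 ± 0.11 (adjusted p of 0.103 by edgeR and 0.0336 by DESeq2, below the fold threshold in both). DESeq2 called Nr1h3 by the trend (adjusted p of 0.0308), where edgeR gave 0.0666, and with the marker covariates its log2 fold change was -0.16. Rxrg, a retinoid X receptor, had a log2 fold change of -0.31 ± 0.23.

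Among other carriers, 6 of 9 genes were tested and none was called, the median log2 fold change being -0.02 on the 10% diet. The basolateral exporter Abcc3 averaged 183 CPM and had a log2 fold change of 0.20 ± 0.10 (SE; adjusted p of 0.337 by edgeR), the apical exporter Abcc2 one of -0.22 ± 0.20, and the hepatic uptake carrier Slc10a1, at 0.798 CPM, one of -0.26 ± 0.25. Among targets of Nr1h4 and Vdr, 5 of 9 genes were tested and none was called. The calcium binding protein S100g had a log2 fold change of -0.84 ± 0.62 (adjusted p of 0.56 by edgeR), Cyp3a13 one of -0.39 ± 0.18 and the calcium pump Atp2b1 one of 0.22 ± 0.13. With the marker covariates that of S100g was 0.63 and that of Atp2b1 -0.05, and with 1 mouse left out S100g ranged from -1.61 (without mouse RS10_727) to -0.36 (without mouse RS10_707), so its direction was not settled. Abcb11, Slco1a4, Gata4, Cyp3a11, Cyp3a25, Cyp8b1, Hsd3b7 and Slc27a5 did not pass the filter on low counts.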

How the data were processed

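DC tissue of 20 mice was sequenced, 1 stranded library per mouse. Bases below quality 30 and reads with over 2 ambiguous bases were removed by the authors, reads were mapped to GRCm39 in CLC Genomics Workbench, and raw gene counts were deposited. The annotation release, the counting of strand and of reads with several matches are not given in the sources used here. Identifiers were matched to GENCODE vM39 (26338 found, 281 not). Groups follow the description label.

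Counts were filtered with filterByExpr (minimum count 10) and tested with edgeR 4.0.16 (TMM scaling, robust quasi-likelihood F-test, R 4.3.3) in 1 fit of the 4 diets, with Benjamini-Hochberg adjustment over 17893 genes. The trend and any-diet tests had no fold threshold. SE is the absolute log2 fold change over the square root of F. Log2 CPM used a prior count of 2. Correlations used 2-sided permutation tests with 100000 resamples, or 10000 where each single mouse was left out. The procedure was tested on simulated data. A gene was at the floor where at least 10 libraries held 3 counts or fewer.

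Every member was named. In each list the called genes and the 3 with the largest absolute log2 fold change at 10% RPS were named, as were the 3 genes most correlated with each member of at least 1 CPM. Members and lists were chosen with earlier results of these data known. Alternatives were DESeq2 1.42.0, RLE scaling, no filter, the treatment label, mice left out, marker covariates, only the 2 groups compared, no fold threshold, and for correlations a prior count of 0.5, deviations from the diet means and residuals. Leaving out mice RS10_703, RS10_721 and RS10_784, and the relations with markers, were added after the data were seen. The p-values of diet differences set the difference against the spread between mice. The labels name each mouse but no batch, so a batch that followed diet could not be told apart from diet. Total counts were lowest at 10% RPS, so depth and diet cannot be told apart by group means.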

Additional observations from a re-analysis of the deposited data

Results flagged for a closer look

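A single mouse stood far from the other 4 of its diet in 3 of 28 groups of values examined, where chance flags about 1 in 20 groups, or 1.4 here. For Slc10a2 at 10% RPS it was mouse RS10_784, with 3.41 CPM against 8.69 to 10.4 CPM in the other mice. For Nr1h4 at 0% RPS it was mouse RS10_707, with 77.2 CPM, the next mouse having 62.7 CPM. The same mouse stood apart for Vdr at 0% RPS, with 732 CPM against a next value of 479 CPM.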

How the results depend on the processing

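No member was called in the 3 comparisons, the trend or the any-diet test under any alternative run. No paired analysis was possible because each mouse number belongs to 1 animal. The count of correlated pairs, 1 as reported, was 2 without the 3 mice with disagreeing labels, and 1 to 2 with each mouse left out (2 without mouse RS10_748), where Slc10a2 and Slc51b also passed. Slc10a2 at 10% RPS ranged from -1.11 to -0.80 on the log2 scale with each mouse left out, and Slc51b at 5% RPS from 0.63 to 0.89. The direction of a difference or correlation turned in the following cases. With marker covariates the log2 fold change of Vdr was 0.03 at 2%, 0.03 at 5% and 0.29 at 10% RPS and its slope 0.031, that of S100g at 10% RPS was 0.63 and that of Atp2b1 -0.05. Without the 3 mice with disagreeing labels Vdr at 2% RPS was 0.04 and Gpbar1 at 5% RPS -0.01, and by the treatment label Gpbar1 at 5% RPS was -0.08. Without mice RS10_703, RS10_721 and RS10_784, Fabp6 at 2% RPS was -0.04, and r of Fabp6 and Vdr was -0.02. The r of Slc10a2 and Nr1h4 was 0.12 for deviations from diet means and 0.11 for residuals on markers, for which Slc10a2 and Fabp6 gave -0.05 and Slc51b and Vdr 0.02. With each mouse left out, Fabp6 ranged from -0.04 to 0.34 at 2% and -0.23 to 0.16 at 5% RPS, Vdr from -0.11 to 0.13 at 2% and -0.22 to 0.09 at 10% RPS (slope -0.024 to 0.003), Gpbar1 from -0.01 to 0.33 at 2% and -0.07 to 0.17 at 5% RPS (slope -0.003 to 0.027), and r of Nr1h4 and Vdr from -0.02 to 0.17. The cause of these shifts was not tested. Depth limits Nr0b2 and Slc51a, for which no diet difference was detectable at this depth.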
